A study of Mus musculus with 6 samples.

Results

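The genes described here are 37 genes of the lysosome, chosen by name: cathepsins and other lumenal proteins, lysosomal membrane proteins, the vacuolar proton pump (V-ATPase) and the TFEB family of transcription factors. They are 37 of the 46095 gene symbols in the count table, and all 37 were among the 16061 genes kept by the filter on low counts. RNA was sequenced from cultured nucleus pulposus cells of mice aged 8 weeks at passage 2, the nucleus pulposus being the soft core of the intervertebral disc. There were 2 libraries each of knockout (labelled Chsy3KO), heterozygous (labelled Chsy3 heterozygous) and wild-type mice. Chsy3 encodes a chondroitin sulfate synthase. The sources used here do not give the altered part of the gene, the mouse strain or whether both libraries of each genotype stem from different animals or cultures, and the p-values therefore cover the spread between these libraries alone, which may be technical.

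Lysosomes break down proteins, lipids and sugar chains, chondroitin sulfate among them, with hydrolases that work in an acid lumen. The V-ATPase makes that lumen acid: its V1 sector, on the cytosolic side, burns ATP and its V0 sector, in the membrane, carries protons inward. TFEB, TFE3 and MITF are related transcription factors that bind the letters CACGTG, known as the CLEAR core, in front of many lysosomal genes. Phagocytes such as macrophages are rich in cathepsins and other lysosomal proteins.

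Total counts were 29622117 to 33899611 per library, and the members had between 63 counts (Atp6v0d2 in a wild-type library) and 224943 counts (Ctsb in a knockout library). Chsy3 itself had 118 and 76 counts in knockout, 167 and 197 counts in heterozygous, and 284 and 284 counts in wild-type cells. It fell in knockout against wild type by 1.53 on the log2 scale (edgeR, adjusted p = 3.59e-08). All libraries are labelled male, but no read was counted for the Y-linked gene Ddx3y in either heterozygous library (0 counts each), next to 929 and 730 counts in wild type, and Xist, the RNA of the inactive X chromosome, was at 650.5 to 1080.0 CPM (counts per 1000000 of the scaled library total) in every library. Xist in every library goes against the label male, and the heterozygous libraries also go against it by the lack of Ddx3y reads. The log2 fold changes of 5 sex-linked genes, Xist and Ddx3y among them, were -0.01 to 0.38 in knockout against wild type, with a median of 0.34. Of these 5, 2 were higher in knockout and 0 lower (edgeR, adjusted p under 0.05), next to 19.2% and 18.9% of all genes tested. Sex-linked genes were thus not all at the same level in knockout and wild type. Knockout, like wild type, thus held both Xist and Ddx3y. No value for heterozygous cells can be had without the heterozygous libraries. The cultures held RNA of macrophages and fibroblasts: Lyz2 lay between 7007 and 8841 CPM and Col1a1 between 5377 and 11927 CPM over the 6 libraries. Of 10 nucleus pulposus and notochord markers, 5 passed the filter on low counts (Col2a1, Krt19, Sox9, Car3 and Cd24a), and all 10 summed to 56.7 and 58.1 CPM in knockout, 74.7 and 74.7 CPM in heterozygous, and 66.8 and 70.0 CPM in wild type. T and Shh had 0 counts in all libraries, and the aggrecan gene Acan had 8, all in the same wild-type library.

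Lysosomal genes were higher in knockout than in wild type across nearly every role. Summed over the 37 genes, the level was 28690.4 and 28045 CPM in the knockout libraries, 22288 and 22273 CPM in the heterozygous libraries, and 19738 and 19645 CPM in the wild-type libraries, with no overlap between genotypes. Without Gpnmb, the gene with the largest change, the sums were 27192 and 26549.8 CPM in knockout, 22053 and 22031 CPM in heterozygous, and 19524 and 19426 CPM in wild type. In knockout against wild type 30 of the 37 genes rose, 2 fell and 5 did not pass the threshold (edgeR quasi-likelihood F test, p adjusted by Benjamini-Hochberg over all genes tested, threshold 0.05). Of all 16061 genes, 38% passed, 19.2% higher and 18.9% lower. The libraries of both genotypes did not overlap for 32 members that were higher and 2 that were lower, against 33.2% and 33.4% of all genes (66.6% together). The median log2 fold change was 0.40 over the 37 members and -0.0031 over all genes tested.

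Most of the differences were small and alike in size. Of the 30 increases, 19 lay between 0.3 on the log2 scale and a fold of 1.5. Only 5 members changed at least 1.5-fold and passed the threshold, all of them higher in knockout: Gpnmb, Atp6v0d2, Lipa, Ctsb and Atp6v0c. That is 13.5% of the members, next to 13.1% of all genes tested.

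In heterozygous against wild type 19 members rose, 3 fell and 15 did not pass (edgeR, adjusted p under 0.05), where 38.9% of all genes passed, 19.2% higher and 19.7% lower. Libraries did not overlap for 21 members that were higher and 7 that were lower, next to 33% and 34% of all genes (67% together). The median log2 fold change of the members was 0.09, and -0.0029 over all genes. In knockout against heterozygous 26 members rose, 2 fell and 9 did not pass, where 37.1% of all genes passed, 19.1% higher and 17.9% lower, with a median of 0.25 over the members and 0.012 over all genes. Here 27 members were higher and 4 lower without overlap, next to 33.8% and 31.8% of all genes (65.7% together). The 3 comparisons share their libraries pairwise, so their counts are not independent of each other. In both comparisons with heterozygous cells, genotype cannot be told apart from the lack of Ddx3y reads, for any member. By mean level, knockout was the highest genotype for 30 of the 37 members, heterozygous for 5 and wild type for 2. Knockout was the highest for 33.2% of all genes tested.

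**Figure D1:**
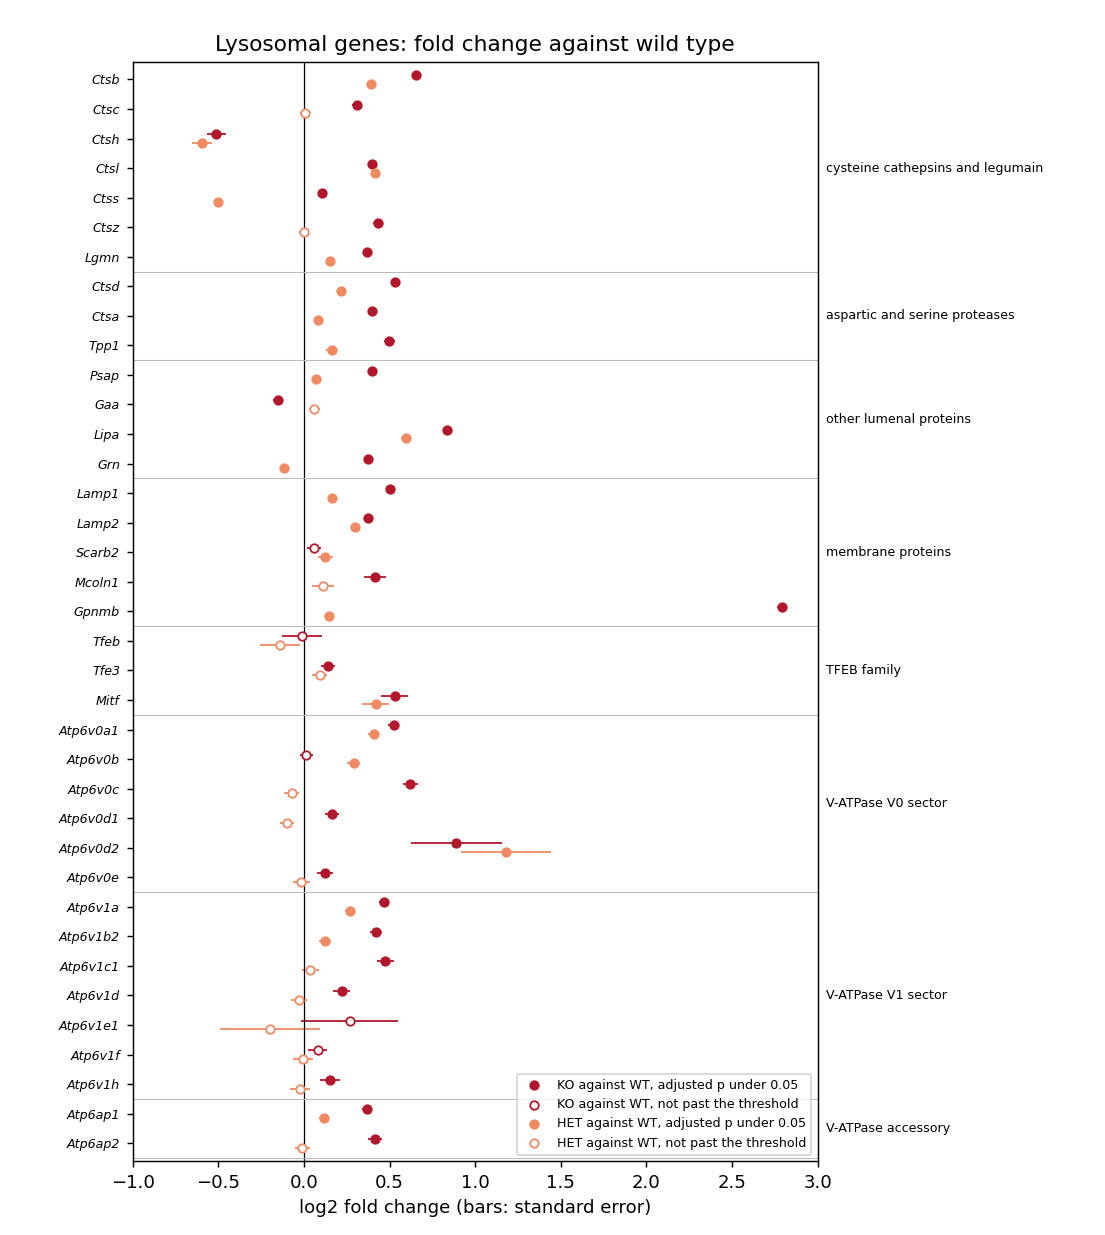
Log2 fold change of each of the 37 lysosomal genes in knockout (KO) and heterozygous (HET) against wild-type (WT) cells, grouped by role. Bars are standard errors and filled points passed an adjusted p of 0.05: 30 genes were higher and 2 lower in knockout, with Gpnmb at 2.79, and 19 were higher and 3 lower in heterozygous.

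**Figure D2:**
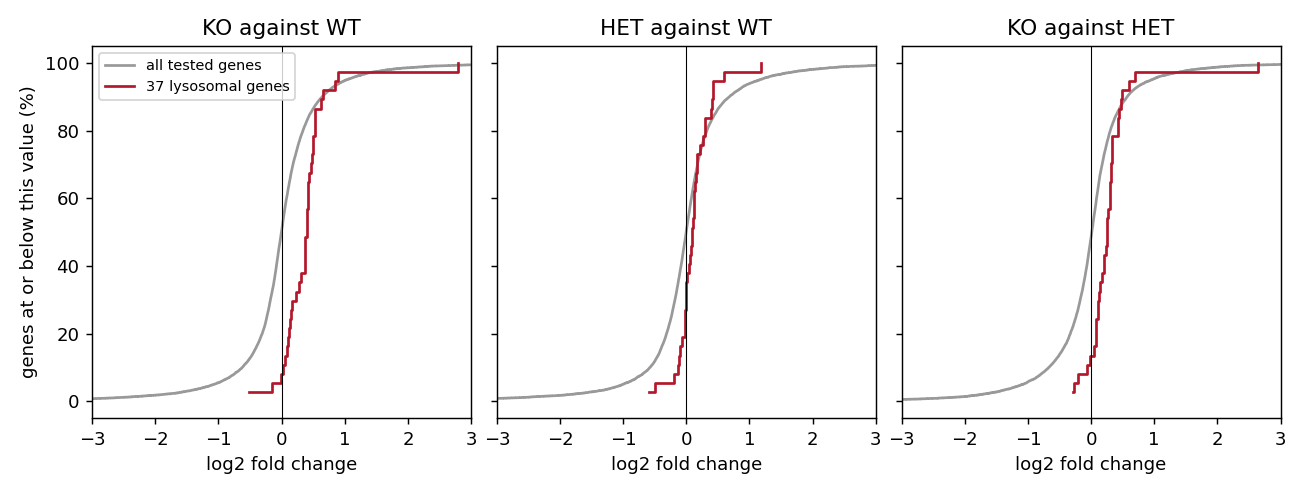
Cumulative share of genes (vertical axis, %) by log2 fold change (horizontal axis) for the 37 lysosomal genes and all 16061 genes tested, in the 3 comparisons. At its middle the curve of the lysosomal genes lies to the right of that of all genes, with medians of 0.40, 0.09 and 0.25 on the log2 scale. At higher log2 fold changes the curves cross.

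The promoters of the members were searched on both strands for the CLEAR core. A window here runs from 250 bases before a gene's start to 30 bases from the start on, as read from RefSeq on GRCm38.p6. RefSeq windows were at hand for 31 members, 41 windows in all. The letters CACGTG were in 26.8% of these windows (11 of 41, from 11 members), against 6.79% of all 32851 windows. The longer TCACGTGA, which contains the core, was in 14.6% of the members' windows and 0.931% of all windows, and the M-box letters TCATGTG, which cannot overlap the core, in 14.6% and 3.60%. The GC box letters GGGCGG, a common promoter motif not tied to lysosomes, were in 65.9% of the members' windows and 34.7% of all windows. The members were picked as lysosomal genes, and no test was made on these shares. Of the 11 members with CACGTG in a window, 9 rose in knockout against wild type, 1 fell and 1 did not pass, with a median log2 fold change of 0.40. Of the 20 with a window but without it, 16 rose and 4 did not pass, with a median of 0.37. In heterozygous against wild type, 7 of the 11 with the core rose and 4 did not pass, with a median of 0.15. Of the 20 without it, 9 rose, 2 fell and 9 did not pass there, with a median of 0.04. These splits were not tested.

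The windows below are those of the gene with the largest rise, of 3 genes that rose and carry the core, and of 2 genes that carry it and did not rise in knockout (GRCm38.p6, 5′ to 3′ on the gene's strand, CACGTG in capitals). Positions count from 0 at the RefSeq start on which the window was built. This start can differ from the end of the gene in other annotation, so a position before it can lie within the annotated gene. Gpnmb had neither CACGTG nor TCATGTG in its window, Ctsd had the core at -245 and -98, and Lamp1 had 4 matches, the first at -61. Mcoln1 had it at -71 and -45, Atp6v0b at -36 and -18, and Gaa at -140.
Gpnmb (chr6:49036268-49036547, plus strand): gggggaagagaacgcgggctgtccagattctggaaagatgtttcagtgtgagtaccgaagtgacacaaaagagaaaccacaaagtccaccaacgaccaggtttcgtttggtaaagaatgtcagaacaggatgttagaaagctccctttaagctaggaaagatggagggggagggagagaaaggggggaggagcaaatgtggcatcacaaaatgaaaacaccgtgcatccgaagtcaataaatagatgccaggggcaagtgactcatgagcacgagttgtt
Ctsd (chr7:142387798-142388077, minus strand): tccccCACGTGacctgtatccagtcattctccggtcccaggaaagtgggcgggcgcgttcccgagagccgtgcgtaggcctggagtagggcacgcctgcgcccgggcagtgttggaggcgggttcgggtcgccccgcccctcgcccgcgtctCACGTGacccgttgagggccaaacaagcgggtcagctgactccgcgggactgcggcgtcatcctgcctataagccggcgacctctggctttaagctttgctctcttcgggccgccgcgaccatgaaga
Lamp1 (chr8:13158911-13159190, plus strand): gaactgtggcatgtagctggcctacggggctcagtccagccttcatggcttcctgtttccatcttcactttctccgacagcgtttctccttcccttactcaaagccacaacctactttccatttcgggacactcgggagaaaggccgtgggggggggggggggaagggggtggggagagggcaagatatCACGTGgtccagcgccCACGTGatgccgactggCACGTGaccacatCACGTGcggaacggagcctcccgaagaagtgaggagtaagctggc
Mcoln1 (chr8:3500269-3500548, plus strand): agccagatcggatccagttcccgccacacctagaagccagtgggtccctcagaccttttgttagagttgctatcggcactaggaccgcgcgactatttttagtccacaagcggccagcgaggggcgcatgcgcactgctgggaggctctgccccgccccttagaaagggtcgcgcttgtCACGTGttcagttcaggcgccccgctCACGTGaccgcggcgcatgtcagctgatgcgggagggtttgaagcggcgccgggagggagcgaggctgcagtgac
Atp6v0b (chr4:117887300-117887579, minus strand): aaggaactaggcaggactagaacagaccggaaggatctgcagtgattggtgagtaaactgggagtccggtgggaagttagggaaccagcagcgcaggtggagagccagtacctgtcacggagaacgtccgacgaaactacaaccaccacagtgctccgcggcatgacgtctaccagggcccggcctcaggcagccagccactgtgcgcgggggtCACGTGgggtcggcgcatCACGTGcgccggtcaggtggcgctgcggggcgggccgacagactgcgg
Gaa (chr11:119267713-119267992, plus strand): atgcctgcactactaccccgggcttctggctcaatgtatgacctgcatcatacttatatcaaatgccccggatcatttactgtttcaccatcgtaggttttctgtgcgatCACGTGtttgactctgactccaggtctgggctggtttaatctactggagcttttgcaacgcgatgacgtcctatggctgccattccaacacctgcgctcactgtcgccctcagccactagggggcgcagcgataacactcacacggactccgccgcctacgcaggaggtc

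Ctsb and Ctsd were the most abundant members, and both rose in knockout and in heterozygous cells. Ctsb (chromosome 14, 63122462 to 63145923, GRCm38) encodes cathepsin B, a cysteine protease that also works as a carboxydipeptidase. It was at 6709.8 and 6592 CPM in the knockout libraries, 5570.3 and 5543 CPM in the heterozygous libraries, and 4244 and 4220.0 CPM in the wild-type libraries. The 3 genotypes did not overlap, with knockout highest. Against wild type, the log2 fold change of Ctsb was 0.65 ± 0.02 (SE) in knockout and 0.39 ± 0.02 in heterozygous cells, and knockout exceeded heterozygous cells by 0.26 ± 0.02 (edgeR, adjusted p = 1.64e-31, 1.38e-23 and 2.69e-17). Its annotated exons share 774 bases with the opposite-strand gene Fdft1, and the sources used here do not state whether counting used the strand.

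Ctsd encodes cathepsin D, the main aspartic protease of the lysosome. Ctsd was at 5559.6 and 5313 CPM in the knockout libraries, 4389 and 4348 CPM in the heterozygous libraries, and 3755 and 3772 CPM in the wild-type libraries, again with no overlap. Its log2 fold change was 0.53 ± 0.02 (SE) in knockout and 0.22 ± 0.02 in heterozygous relative to wild-type cells (edgeR, adjusted p = 1.2e-26 and 2.39e-13). Per length, the level of Ctsd was the highest of all 37 genes, at 2556 ± 81.9 CPM per kb of transcript in knockout, 2054 ± 13.5 in heterozygous and 1769 ± 5.42 in wild type (SD, n = 2). The exons of Ctsd share 808 bases with Gm49369, a protein-coding gene on the same strand, so its counts are uncertain. Ctsb followed at 1402 ± 17.5, 1172 ± 4.03 and 892 ± 3.57 CPM per kb in the same order of genotypes. Together Ctsb and Ctsd made up 42.8% and 42.5% of the members' summed CPM in the knockout libraries, 44.7% and 44.4% in heterozygous, and 40.5% and 40.7% in wild-type libraries.

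Among the other cysteine proteases the genotypes split in several ways. Ctsz, Ctsl, Lgmn and Ctsc rose in knockout against wild type, at 0.43, 0.40, 0.37 and 0.31 on the log2 scale. They encode cathepsin Z, a carboxypeptidase, cathepsin L, an endopeptidase, legumain, which cuts after asparagine and processes other cathepsins, and cathepsin C, which activates serine proteases of granules. Ctsz was at 724 and 686 CPM in the knockout libraries, 511 and 534 CPM in the heterozygous libraries, and 531 and 514 CPM in the wild-type libraries. Ctsl was as far from wild type in heterozygous as in knockout cells, at 635 and 650.4 CPM in the knockout libraries, 644 and 659 CPM in the heterozygous libraries, and 489 and 488 CPM in the wild-type libraries, and the difference between knockout and heterozygous was -0.02 ± 0.02 log2 (SE, edgeR, adjusted p = 0.565). The exons of Ctsl share 1742 bases with an antisense gene, Gm47123, and 395 bases with Gm49230, a processed pseudogene on the same strand, so its counts are uncertain. Ctsz and Ctsc differed from wild type in knockout but were at 0.00 ± 0.03 log2 (SE) in heterozygous cells (edgeR, adjusted p = 0.99 and 0.941).

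Ctss, which encodes cathepsin S, an elastin-cleaving protease of antigen-presenting cells that stays active at neutral pH, went in opposite directions. It was at 876 and 886 CPM in the knockout libraries, 573 and 583 CPM in the heterozygous libraries, and 831 and 806 CPM in the wild-type libraries. The heterozygous libraries were thus lowest, and knockout was slightly above wild type. Ctss differed by 0.11 ± 0.02 log2 (SE) in knockout and -0.50 ± 0.02 in heterozygous relative to wild type, and 0.61 ± 0.02 between knockout and heterozygous (edgeR, adjusted p = 0.000255, 1.36e-21 and 2.04e-24).

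Ctsh was the cathepsin gene that fell in both genotypes. It encodes cathepsin H, an aminopeptidase, and was at 75.5 and 65.5 CPM in the knockout libraries, 68.9 and 64.4 CPM in the heterozygous libraries, and 99.7 and 101 CPM in the wild-type libraries. Both wild-type libraries lay above the other 4. It changed by -0.51 ± 0.06 log2 (SE) in knockout and -0.59 ± 0.06 in heterozygous relative to wild-type cells (edgeR, adjusted p = 2.77e-10 and 8.48e-12), and by 0.08 ± 0.06 between knockout and heterozygous (edgeR, adjusted p = 0.29). Without knockout library 2 or with library totals that last difference passed the threshold (edgeR, adjusted p = 0.0283 and 0.0405).

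The serine proteases rose with Ctsd. Ctsa encodes cathepsin A, which also shields neuraminidase and beta-galactosidase in a complex, and Tpp1 encodes tripeptidyl peptidase 1, which cuts tripeptides from the ends of proteins. Tpp1 was at 361 and 347 CPM in the knockout libraries, 279.9 and 281 CPM in the heterozygous libraries, and 254 and 247 CPM in the wild-type libraries, a log2 fold change of 0.50 ± 0.03 (SE) in knockout and 0.16 ± 0.03 in heterozygous relative to wild-type cells (edgeR, adjusted p = 8.35e-18 and 3.37e-05). Ctsa was at 0.40 ± 0.02 and 0.09 ± 0.02 log2 in the same comparisons (edgeR, adjusted p = 1.96e-18 and 0.00329), and the heterozygous increase of Ctsa did not pass without wild-type library 2 or with library totals in place of TMM scaling (edgeR, adjusted p = 0.057 and 0.13).

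**Figure D3:**
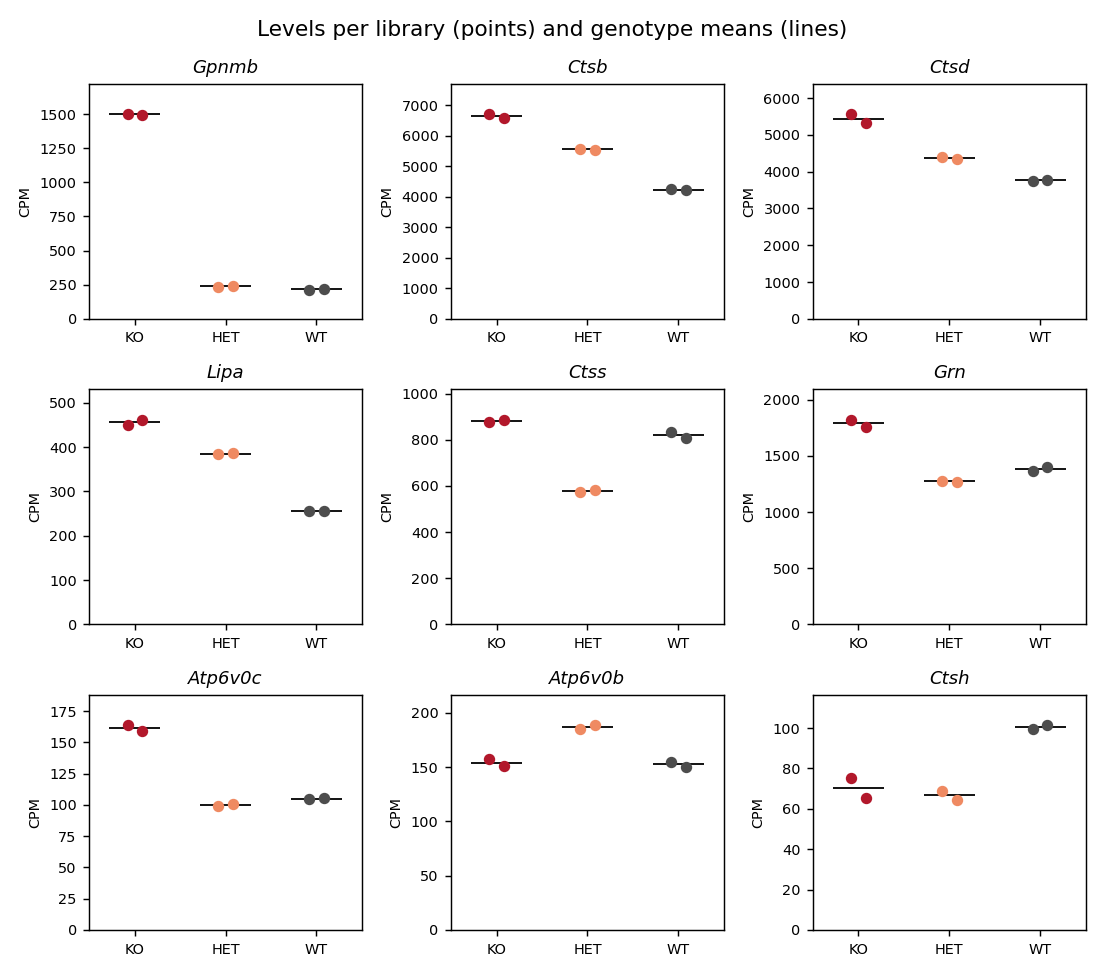
Level (CPM, axis from 0) of 9 lysosomal genes in each library, with points for libraries and lines for genotype means, for knockout (KO), heterozygous (HET) and wild type (WT). Gpnmb stands apart in knockout at 1498 and 1495 CPM, Ctss is lowest in heterozygous, Atp6v0b is highest in heterozygous, and Ctsh is highest in wild type.

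Of the other lumenal proteins, Lipa rose most. It encodes lysosomal acid lipase, which splits cholesterol esters and triglycerides taken up by the cell. Lipa was at 449 and 461 CPM in the knockout libraries, 384 and 386 CPM in the heterozygous libraries, and 255 and 255 CPM in the wild-type libraries, so knockout was highest and heterozygous lay nearer to knockout than to wild type. Lipa changed by 0.84 ± 0.03 log2 (SE) in knockout and 0.60 ± 0.03 in heterozygous against wild type, and 0.24 ± 0.03 between knockout and heterozygous (edgeR, adjusted p = 7.06e-27, 1.84e-21 and 1.22e-09).

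Psap and Grn both encode precursors that are cut into active parts in the lysosome, the saposins that present lipids to hydrolases and the granulins. Psap was the most abundant of the 4 lumenal genes per length, at 923 ± 30.9 CPM per kb in knockout, 736 ± 2.61 in heterozygous and 701 ± 1.11 in wild type (SD, n = 2). Its log2 fold change was 0.40 ± 0.02 (SE) in knockout and 0.07 ± 0.02 in heterozygous relative to wild-type cells (edgeR, adjusted p = 1.78e-20 and 0.00429), and the heterozygous increase did not pass with library totals in place of TMM scaling (edgeR, adjusted p = 0.23). Grn, like Ctss, passed the threshold in opposite directions. It was at 1822 and 1761 CPM in the knockout libraries, 1276 and 1271 CPM in the heterozygous libraries, and 1367 and 1397 CPM in the wild-type libraries, a log2 fold change of 0.37 ± 0.02 (SE) in knockout and -0.12 ± 0.02 in heterozygous relative to wild-type cells (edgeR, adjusted p = 4.3e-19 and 1.29e-05).

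Gaa, which encodes acid alpha-glucosidase, the enzyme of lysosomal glycogen breakdown, was the other member that fell in knockout. It was at 301 and 295 CPM in the knockout libraries, 352 and 339 CPM in the heterozygous libraries, and 324 and 338 CPM in the wild-type libraries. The knockout libraries were lowest, by a small step: the log2 fold change was -0.15 ± 0.03 (SE) against wild type and -0.21 ± 0.03 against heterozygous (edgeR, adjusted p = 6.55e-05 and 1.85e-07).

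Gpnmb stood apart from every other member. It encodes a glycoprotein of phagosomes, lysosomes and melanosomes and is known as a target of MITF and TFE3 in macrophages and pigment cells. Gpnmb (chromosome 6, 49036546 to 49070929, GRCm38) was at 1498 and 1495 CPM in the knockout libraries, 236 and 242 CPM in the heterozygous libraries, and 213 and 219 CPM in the wild-type libraries. Both knockout libraries lay far above the other 4. Gpnmb was 6.92-fold higher in knockout than in wild type (log2 2.79 ± 0.03, SE, edgeR, adjusted p = 3.52e-47) and 6.26-fold higher than in heterozygous (log2 2.65 ± 0.03, edgeR, adjusted p = 1.31e-46). In heterozygous against wild type it was at 0.14 ± 0.03 log2 (edgeR, adjusted p = 1.68e-05). By log2 fold change in knockout against wild type it ranked 113 of 16061 genes, and the next members were Atp6v0d2 at 1013, Lipa at 1104 and Ctsb at 1574.

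The structural membrane proteins rose together in knockout. Lamp1 and Lamp2 encode the abundant glycoproteins that line the lysosomal membrane, LAMP2 also serving chaperone-mediated autophagy. Lamp1 was at 1581 and 1589 CPM in the knockout libraries, 1242 and 1272 CPM in the heterozygous libraries, and 1149 and 1093 CPM in the wild-type libraries, a log2 fold change of 0.50 ± 0.02 (SE) in knockout and 0.17 ± 0.02 in heterozygous relative to wild-type cells (edgeR, adjusted p = 1.55e-22 and 5.05e-08). Lamp2 was at 615 and 605 CPM in the knockout libraries, 583 and 575 CPM in the heterozygous libraries, and 466 and 474 CPM in the wild-type libraries, so that heterozygous lay close to knockout. The log2 fold changes of Lamp2 were 0.38 ± 0.03 (SE) and 0.30 ± 0.03 in these comparisons (edgeR, adjusted p = 1.31e-16 and 1.77e-13). Between knockout and heterozygous it differed by 0.07 ± 0.02 (edgeR, adjusted p = 0.016), which did not pass without knockout library 1 or heterozygous library 1 or 2 (edgeR, adjusted p = 0.111, 0.0574 and 0.118).

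Mcoln1 and Scarb2 had fewer counts. Mcoln1 encodes the calcium channel TRPML1 of the lysosomal membrane and was at 60.2 and 62.0 CPM in the knockout libraries, 51.8 and 47.0 CPM in the heterozygous libraries, and 44.2 and 47.3 CPM in the wild-type libraries. It rose in knockout against wild type (log2 0.42 ± 0.06, SE, edgeR, adjusted p = 6.61e-07), while heterozygous was at 0.11 ± 0.07 (edgeR, adjusted p = 0.191). Scarb2 encodes LIMP-2, which carries glucocerebrosidase to the lysosome. It did not pass in knockout against wild type (log2 0.06 ± 0.04, edgeR, adjusted p = 0.301). Its increase in heterozygous over wild-type cells (0.13 ± 0.04, edgeR, adjusted p = 0.0153) did not pass without heterozygous library 2, wild-type library 1 or wild-type library 2, or with library totals (edgeR, adjusted p = 0.128, 0.0584, 0.0597 and 0.113).

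**Figure D4:**
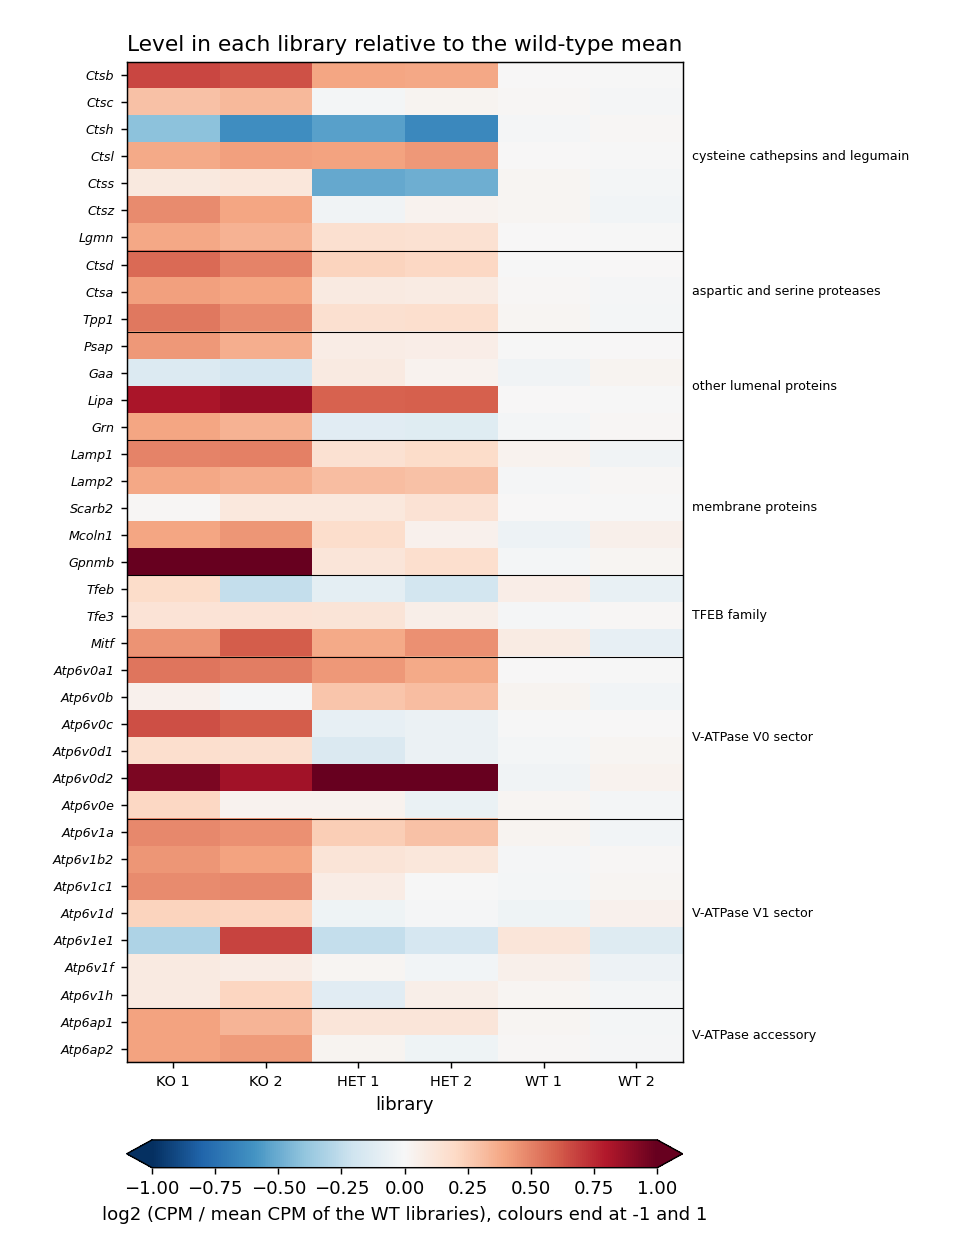
Level of each of the 37 genes in each of the 6 libraries as log2 of CPM over the mean of the wild-type (WT) libraries; rows are genes grouped by role and columns are libraries. Libraries of the same genotype look alike for most genes, the knockout (KO) columns are mostly red (higher), and Ctsh is blue (lower) in knockout and heterozygous (HET); colours end at -1 and 1, which Gpnmb exceeds in knockout and Atp6v0d2 in heterozygous.

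Of the TFEB family, Mitf rose in both genotypes and Tfeb in neither. Mitf was at 39.0 and 43.3 CPM in the knockout libraries, 37.1 and 39.1 CPM in the heterozygous libraries, and 30.1 and 26.9 CPM in the wild-type libraries. Its log2 fold change was 0.53 ± 0.08 (SE) in knockout and 0.42 ± 0.08 in heterozygous relative to wild-type cells (edgeR, adjusted p = 2.44e-07 and 2.53e-05), and 0.11 ± 0.08 between knockout and heterozygous (edgeR, adjusted p = 0.273). Tfe3, the most abundant of the family per length, was at 124 and 124 CPM in the knockout libraries, 123 and 117 CPM in the heterozygous libraries, and 112 and 113 CPM in the wild-type libraries. It rose slightly in knockout (log2 0.14 ± 0.04, edgeR, adjusted p = 0.0075), but not without wild-type library 1 (edgeR, adjusted p = 0.0614). Tfeb was at 20.2 and 15.1 CPM in the knockout libraries, 16.6 and 15.7 CPM in the heterozygous libraries, and 18.7 and 16.9 CPM in the wild-type libraries, with overlap between knockout and wild type and a log2 fold change of -0.01 ± 0.12 (SE, edgeR, adjusted p = 0.945). These factors are known to act through their place in the cell, which RNA levels do not show.

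The summed RNA level of the 15 proton pump members was higher in knockout, whereas further pump genes, given below, moved in both directions. The 15 members summed to 2519.8 and 2468 CPM in the knockout libraries, 2140.1 and 2143 CPM in the heterozygous libraries, and 1958 and 1934 CPM in the wild-type libraries. In knockout against wild type 5 of 6 V0 genes, 5 of 7 V1 genes and both accessory genes rose, and none of the 15 fell. The subunits did not move by the same step, and the members that did not pass were Atp6v0b, Atp6v1f and Atp6v1e1.

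In the V0 sector, Atp6v0c rose most among the abundant genes. It encodes subunit c, which forms the proton-carrying ring, and was at 164 and 159 CPM in the knockout libraries, 98.9 and 101 CPM in the heterozygous libraries, and 105 and 105 CPM in the wild-type libraries. Both knockout libraries lay above all others, at a log2 fold change of 0.62 ± 0.04 (SE) against wild type and 0.69 ± 0.04 against heterozygous (edgeR, adjusted p = 1.58e-16 and 9.16e-18). The heterozygous libraries lay slightly below wild type without overlap. That difference did not pass (log2 -0.07 ± 0.04, edgeR, adjusted p = 0.208), except under 1 of 13 alternative settings. The listed copy Atp6v0c-ps2 also had counts, 3250 and 3602 in knockout, 3170 and 3401 in heterozygous, and 3673 and 3607 in wild-type cells, so reads of this gene and its copy may have been split.

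Atp6v0b, which encodes subunit c″ of the same ring, followed another pattern. It was at 157 and 151 CPM in the knockout libraries, 185 and 189 CPM in the heterozygous libraries, and 155 and 150.0 CPM in the wild-type libraries. Knockout overlapped wild type (log2 0.01 ± 0.04, SE, edgeR, adjusted p = 0.804), and heterozygous was above both, at 0.29 ± 0.04 against wild type (edgeR, adjusted p = 1.99e-08). Knockout was at -0.28 ± 0.04 against heterozygous (edgeR, adjusted p = 6.75e-08). Part of its exons, 243 bases, lies opposite an antisense gene, Gm12841.

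Atp6v0a1 encodes a form of the large subunit a, which targets the pump to its membrane. It was at 312 and 306 CPM in the knockout libraries, 290.2 and 280.0 CPM in the heterozygous libraries, and 216 and 214 CPM in the wild-type libraries, a log2 fold change of 0.52 ± 0.03 (SE) in knockout and 0.41 ± 0.03 in heterozygous relative to wild-type cells (edgeR, adjusted p = 3.82e-18 and 1.93e-14). Knockout and heterozygous differed by 0.12 ± 0.03 (edgeR, adjusted p = 0.00231), a call that was lost without heterozygous library 2 (edgeR, adjusted p = 0.064). Smaller increases in knockout against wild type were those of Atp6v0d1, which encodes the subunit that couples the ring to the stalk (0.16 ± 0.04, edgeR, adjusted p = 0.00133), and Atp6v0e (0.12 ± 0.05, edgeR, adjusted p = 0.0407). Atp6v0e did not pass without knockout library 1 or wild-type library 2 or with DESeq2 (adjusted p = 0.682, 0.163 and 0.116).

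Atp6v0d2 encodes the form of subunit d that is known from osteoclasts and macrophages, and its level was low. It had 120 and 116 counts in knockout, 139 and 121 counts in heterozygous, and 63 and 66 counts in wild-type cells. Both wild-type libraries lay below the other 4, and Atp6v0d2 changed by 0.89 ± 0.26 log2 (SE) in knockout and 1.18 ± 0.26 in heterozygous relative to wild-type cells (edgeR, adjusted p = 0.00596 and 0.000304). Per length, Atp6v0d1 was at 87.9 ± 0.628 CPM per kb in knockout, 73.3 ± 3.13 in heterozygous and 78.5 ± 1.24 in wild type, whereas Atp6v0d2 was at 1.39 ± 0.0668, 1.70 ± 0.282 and 0.747 ± 0.0252 CPM per kb in the same order (SD, n = 2).

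In the V1 sector Atp6v1a, Atp6v1b2, Atp6v1c1, Atp6v1d and Atp6v1h rose in knockout. Atp6v1a encodes the catalytic subunit A and was at 422 and 417 CPM in the knockout libraries, 359 and 371 CPM in the heterozygous libraries, and 308 and 298 CPM in the wild-type libraries, with no overlap and a log2 fold change of 0.47 ± 0.03 (SE) in knockout and 0.27 ± 0.03 in heterozygous relative to wild-type cells (edgeR, adjusted p = 9.43e-18 and 2.93e-10). Atp6v1c1 was at 112 and 114 CPM in the knockout libraries, 85.5 and 81.2 CPM in the heterozygous libraries, and 80.3 and 82.2 CPM in the wild-type libraries, so only knockout stood apart. In knockout against wild type, Atp6v1c1, which encodes the subunit C that links stalk and membrane, was at 0.48 ± 0.05, Atp6v1b2, a form of the nucleotide-binding subunit B, at 0.42 ± 0.03, and Atp6v1d, of the central stalk, at 0.22 ± 0.05 (edgeR, adjusted p = 2.58e-11, 1.08e-13 and 0.000185). The increase of Atp6v1b2 in heterozygous against wild type, 0.12 ± 0.04, was lost without wild-type library 1 and with library totals (edgeR, adjusted p = 0.0538 and 0.0587). Atp6v1h, a regulatory subunit, was at 0.15 ± 0.06 in knockout against wild type (edgeR, adjusted p = 0.033), and did not pass without knockout library 2 or wild-type library 2 or with DESeq2 (adjusted p = 0.381, 0.141 and 0.0998). Atp6v1f, of the central stalk, did not pass in any comparison, except between knockout and heterozygous with library totals (edgeR, adjusted p = 0.0312).

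Atp6v1e1, which encodes the peripheral stalk subunit E, had 77 and 158 counts in knockout, 71 and 82 counts in heterozygous, and 107 and 90 counts in wild-type cells, or 2.34 and 4.63 CPM in knockout, 2.46 and 2.58 CPM in heterozygous, and 3.14 and 2.65 CPM in wild type. The knockout libraries lay on either side of all the others in CPM, and no comparison passed the threshold. Without knockout library 1, knockout was above heterozygous (edgeR, adjusted p = 0.0291). At 2.65 ± 1.24 CPM per kb in knockout, 1.92 ± 0.063 in heterozygous and 2.21 ± 0.267 in wild type (SD, n = 2), its level per length was far below that of the other V1 genes, which lay between 24.2 and 99.2 CPM per kb as genotype means. The sources used here do not state how reads that match several copies were counted, so this level is uncertain.

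The accessory genes Atp6ap1 and Atp6ap2, whose products take part in assembly of the pump, rose in knockout against wild type at 0.37 ± 0.03 and 0.41 ± 0.04 log2 (SE, edgeR, adjusted p = 1.41e-14 and 1.85e-11). Atp6ap2 was at 156 and 159 CPM in the knockout libraries, 120.3 and 115 CPM in the heterozygous libraries, and 119.5 and 117 CPM in the wild-type libraries, so only knockout stood apart. Atp6ap1 also rose in heterozygous cells (0.12 ± 0.03, edgeR, adjusted p = 0.000747). Both lie on the X chromosome, as do Lamp2 and Tfe3. Of these 4, Lamp2 and Atp6ap1 rose in heterozygous cells, whose libraries held no reads of Ddx3y, and Tfe3 and Atp6ap2 were at 0.09 and -0.01 log2 without passing. Xist was at 1080.0 and 1071 CPM in these libraries and at 663 and 654 CPM in wild type. The part of sex-linked differences in these values was not tested. In comparisons with heterozygous cells it cannot be told apart from genotype, for any of the 37 genes.

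**Figure D5:**
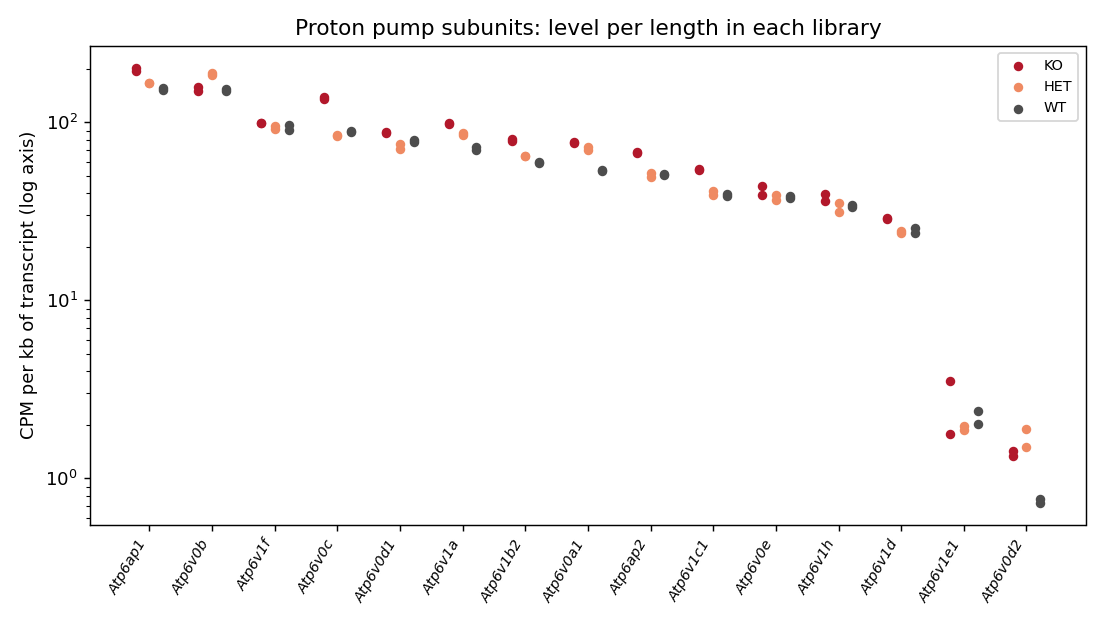
Level per length (CPM per kb of transcript, log axis) of the 15 proton pump genes in each library, ordered by the wild-type mean, for knockout (KO), heterozygous (HET) and wild type (WT). Atp6v1e1 and Atp6v0d2 lie far below the other genes, and Atp6v0c is higher in knockout alone.

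Across the 37 genes the calls fell into a few patterns. A set of 14 genes rose in knockout and in heterozygous against wild type and was higher in knockout than in heterozygous, among them Ctsb, Ctsd, Lipa, Lamp1 and Atp6v1a. A further 10 rose in knockout against both other genotypes and did not pass in heterozygous against wild type, among them Ctsz, Ctsc, Mcoln1, Atp6v0c and Atp6ap2. Ctsl, Mitf and Atp6v0d2 rose in both against wild type and did not pass between knockout and heterozygous. Tfeb, Atp6v1e1 and Atp6v1f passed in no comparison.

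Among further hydrolases, membrane proteins and sorting genes of the lysosome, more rose than fell in knockout. The counts of these and the following lists stand beside 19.2% higher and 18.9% lower over all genes in knockout against wild type, and 19.2% higher and 19.7% lower in heterozygous against wild type. Of 23 further hydrolases and their helpers, 14 of 22 tested rose and 1 fell in knockout against wild type, and 11 rose and 3 fell in heterozygous against wild type. Man2b1, a mannosidase, Npc2, which hands on cholesterol, and Gla, alpha-galactosidase A, were at 0.46, 0.43 and 0.79 log2 in knockout. Of 15 further membrane proteins, 7 rose and 2 fell in knockout, with the cholesterol exporter Npc1 at 0.35, the sialic acid exporter Slc17a5 at 0.72 and Cln3 at 0.67 log2, and 6 rose and 1 fell in heterozygous. Of 9 genes that sort enzymes to the lysosome, most of them by a mannose 6-phosphate tag, 7 rose and 0 fell in knockout. Those that rose included Gnptab, which makes the tag, at 0.37 and the receptor M6pr at 0.21 log2. Sort1, a sorting receptor outside that route, was at 0.45 log2. In heterozygous 2 rose and 0 fell.

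The further pump subunits moved in both directions. Of 5 tested of 10 further pump genes, 2 rose and 3 fell in knockout. Tcirg1, the form of subunit a of osteoclasts and macrophages, was at 270.0 and 273 CPM in the knockout libraries, 169 and 164 CPM in the heterozygous libraries, and 201 and 216 CPM in the wild-type libraries, so it was highest in knockout and lowest in heterozygous. Atp6v1g1 was at 0.28 and Atp6v0e2, a second form of subunit e, at -1.85 log2 in knockout against wild type. Of 5 tested of 6 further cathepsins, 3 rose and 0 fell. Ctse, an aspartic protease of the endosome, was at 80.6 and 76.6 CPM in the knockout libraries, 22.2 and 21.6 CPM in the heterozygous libraries, and 21.9 and 23.5 CPM in the wild-type libraries, a log2 fold change of 1.79 ± 0.07 (SE) in knockout relative to wild type (edgeR, adjusted p = 2.22e-24). Ctso and Ctsf were at 0.42 and 0.23 log2. Of 4 cystatins, inhibitors of cysteine cathepsins, 3 rose in knockout and 0 fell: Cstb at 0.32, Cst7 at 1.31 and Cst3 at 0.17 log2.

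Genes of nutrient signalling at the lysosome, where TFEB and TFE3 are regulated, had 7 of 14 higher and 1 lower in knockout against wild type, and 5 higher and 0 lower in heterozygous. Fnip2 and Fnip1, partners of folliculin, and the GTPase Rragc were at 0.65, 0.50 and 0.34 log2 in knockout. Autophagy genes had 8 of 20 higher and 2 lower in knockout, with Plekhm1 at 0.53, Uvrag at 0.41 and Vps18 at 0.36 log2, and 6 higher and 0 lower in heterozygous. The autophagy genes called in either direction were thus 10 of 20 in knockout, where 38% of all genes were called, and 6 of 20 in heterozygous, where 38.9% were. Over these lists the median log2 fold change in knockout was between -0.23 for the further pump genes and 0.82 for the cystatins, and -0.0031 over all genes tested.

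Markers of other cells moved in the same comparisons. Of 20 macrophage markers, 13 of 19 tested rose and 1 fell in knockout against wild type, and their summed level was 17468 to 17627 CPM in knockout, 18237 to 18373 CPM in heterozygous and 15091 to 15396 CPM in wild type. Aif1 was at 0 counts in all 6 libraries. The sum was highest in heterozygous, and Lyz2 alone, at 7007 to 8841 CPM, made up a large part of it. By gene, 13 of the 19 tested markers were higher and 3 lower in knockout against heterozygous (edgeR, adjusted p under 0.05). Over all genes tested, 19.1% were higher and 17.9% lower there. The median log2 fold change was 0.21 over these markers and 0.012 over all genes. Of 12 fibroblast markers 4 rose and 8 fell in knockout, and their sum was 15514 to 15583 CPM in knockout, 32584 to 33379 CPM in heterozygous and 26041 to 26465 CPM in wild type. The part of these shifts in the levels of the lysosomal genes was not tested, and in such bulk libraries fewer cells of a type and less RNA per cell cannot be told apart. Of 5 endothelial markers 3 rose and 1 fell in knockout, with sums of 73.9 to 77.4 CPM in knockout, 27.3 to 29.3 CPM in heterozygous and 34.6 to 34.7 CPM in wild type. Of 5 melanocyte markers, 1 (Pmel) passed the filter on low counts and none was called. Their sum was 0.586 to 2.20 CPM over the 6 libraries, and Dct and Tyr had 0 counts in all of them. The osteoclast gene Calcr was at 0, and 10 osteoclast markers summed to 169 to 169.5 CPM in knockout, 154 to 164 CPM in heterozygous and 120.7 CPM in both wild-type libraries, with 2 of 6 tested higher and 0 lower in knockout.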

How the data were processed

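The members and the gene lists were chosen with earlier results of these data known. The deposited table holds raw counts per gene symbol: its values are whole and column totals differ. Per the submitters' processing notes, HISAT2 version 2.0.4 and the build GRCm38 were used. The sources used here do not state the counting tool, annotation or strand setting, so overlapping genes and near-identical copies may share reads, and 10 members share exon bases with another gene in GENCODE M21. Among them, Ctsa shares 495 bases with Pltp and 324 with Neurl2, and Lamp1 shares 249 with Grtp1, all on the opposite strand.

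Columns were assigned to libraries by title. Counts were tested with edgeR version 4.0.16 (R version 4.3.3): default filter by group, TMM factors (0.974 to 1.02), 1 robust quasi-likelihood fit of all 6 libraries with 3 residual degrees of freedom, two-sided F tests, and Benjamini-Hochberg adjustment over all tested genes at 0.05. The standard error (SE) is the log2 fold change over the square root of F. CPM is TMM-scaled, and CPM per kb divides it by the length of the principal GENCODE transcript. The code was also run on simulated counts with the same spread set for all genes, which does not check the p-values printed here. All members could be named, and of every further pathway list the 3 tested genes with the smallest p in knockout against wild type. Of the marker lists, genes with the highest mean level and genes without counts could be named. Acan and the nucleus pulposus and melanocyte markers past the filter on low counts were named as well. The sources used here do not state whether library numbers pair the samples, and the main fit used no pairing. Deviations of library 1 correlated between genotypes at -0.025 to 0.022 over 16061 genes, which shows no shared shift but cannot tell how the libraries were prepared. Alternatives were RLE factors, library totals, DESeq2 version 1.42.0, 2 other filters, fits of the libraries compared alone, a replicate block and leaving out each library. Promoter sequences are from RefSeq (GRCm38.p6), and 34 of the members' 41 windows matched a GENCODE transcript in the given orientation.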

Additional observations from a re-analysis of the deposited data

How the results depend on the processing

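The number of members called stayed within 1.5 times its value under all 13 alternatives in each comparison, except that 5 in place of 3 were lower in heterozygous against wild type under scaling by totals without TMM, since the heterozygous TMM factors were below 1. With totals alone 15 members were higher in heterozygous against wild type, and 64.7% of all calls in knockout against heterozygous were higher, against 51.6% with TMM. Leaving out a library gave 28 to 30 members higher in knockout against wild type, 17 to 19 in heterozygous against wild type and 23 to 26 in knockout against heterozygous. The fit with the replicate block called 30 higher and 2 lower in knockout against wild type, 19 and 3 in heterozygous against wild type and 26 and 2 in knockout against heterozygous. What libraries of the same number share is not stated. Of the called members, 29 of 32, 18 of 22 and 24 of 28 passed in the same direction under every alternative in these 3 comparisons. The lower Chsy3 level in heterozygous cells (edgeR, adjusted p = 0.0444) was lost with DESeq2 and without any of 4 libraries (adjusted p = 0.0923 to 0.181).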
